A study of Homo sapiens with 6 samples.

Results

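The genes described here encode the microphthalmia (MiT) family of transcription factors, Tfeb, Tfe3, Mitf and Tfec, and the regulators Flcn, Fnip1, Fnip2 and Mcoln1. These 8 genes were chosen by name, as members of 1 pathway, at a time when earlier results of these data were known. The table of the series listed 7 of the 8 among its 22413 genes, and Tfec is not analysed here. Their identifiers there are ENSMUSG00000023990 for Tfeb, ENSMUSG00000000134 for Tfe3, ENSMUSG00000035158 for Mitf, ENSMUSG00000032633 for Flcn, ENSMUSG00000035992 for Fnip1, ENSMUSG00000061175 for Fnip2 and ENSMUSG00000004567 for Mcoln1. All 7 had a mean of at least 0.5 FPKM (fragments normalized for gene length and library size) and were among the 12163 genes tested. The samples were BaF3-T315I cells, derived from the murine BaF3 line, whose parental cells depend on interleukin-3, by stable transfection with BCR-ABL carrying the T315I mutation, so the control and the exposed samples all carry this oncogene. mRNA was sequenced in 3 control samples and in 3 samples exposed to 1.1 µM of I13, an inhibitor of histone deacetylases, for 48 h. What the control cells received and when they were collected is not given in the sources used here. The labels do not say that the replicates came from separate cultures, so a p-value here measures the spread between these samples, which may be technical.

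The MiT factors are basic helix-loop-helix leucine zipper proteins that bind E-box sequences and the related CLEAR element in the promoters of lysosomal and autophagy genes. When nutrients are plentiful, the kinase complex mTORC1 phosphorylates TFEB and TFE3 at the lysosome and they stay in the cytosol. Folliculin, the product of Flcn, acts with FNIP1 or FNIP2 as a GTPase-activating protein for RagC and RagD, which allows the Rag proteins to present TFEB and TFE3 to mTORC1. MCOLN1 is a lysosomal channel whose calcium release activates calcineurin, and calcineurin dephosphorylates TFEB. MITF is best known from melanocytes, mast cells and osteoclasts. These steps act on the proteins, and the mRNA measured here does not report them.

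The libraries held 16762119 to 17722950 fragments, as recovered from the FPKM values. Of 15 marker genes of the parental pro-B line, 11 were listed. The interleukin-3 receptor genes Il3ra, Csf2rb and Csf2rb2, the B lineage genes Cd79a and Cd79b, and Ptprc were present, Cd79b at 3.57 to 6.94 FPKM. Ebf1, Pax5, Vpreb1, Igll1 and Il7r did not exceed 0.107 FPKM in any sample. The B lineage factors Ebf1 and Pax5 were therefore near 0 in these samples. Of the macrophage markers Adgre1 and Cd68 were present, whereas Csf1r, Mrc1 and Mertk did not exceed 0.0702 FPKM. The summed level of all 6 macrophage markers, mostly Adgre1, was 21.5 to 45.5 FPKM in the control and 49.5 to 85.5 FPKM after I13. Adgre1 alone was at 18.1 to 40.1 FPKM in the control and 44.1 to 76.7 FPKM after I13, and Cd163 did not exceed 0.568 FPKM. Of the 9 mast cell and basophil markers 8 were listed, and their sum, almost entirely Gata2, was 195 to 236 FPKM in the control and 147 to 217 FPKM after I13. Cpa3 was at 1.20 to 9.39 FPKM and Hdc at 0.222 to 2.57 FPKM over the 6 samples. Fcer1a, Ms4a2, Mcpt4, Mcpt8 and Tpsb2 did not exceed 0.315 FPKM. The part of any such cells in the results below was not tested. Of the 5 granulocyte and 5 fibroblast markers, 2 and 1 were listed, and none exceeded 0.130 FPKM.

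In these cells Fnip1 was higher and Flcn was lower in every I13 sample than in every control, while Mitf, Tfe3, Tfeb, Fnip2 and Mcoln1 overlapped between the groups. Fnip1 was 1.41-fold higher and Flcn was at 0.764 of the control level on the scale of the test. A gene was called where limma gave it an adjusted p below 0.05 and it differed by at least 0.58 on the log2 scale in either direction, the thresholds of the study. By these, 0 of the 7 were called, and 0.0411% of all genes tested were. Without regard to p, 0 of the 7 reached the log2 threshold, against 9.41% of all genes. Groups without overlap were seen in 2 of the 7 genes and in 25.2% of all genes tested, made up of 9.82% that were higher and 15.4% that were lower after I13. An unadjusted p below 0.05 was also seen for 2 of the 7, Fnip1 and Flcn, and for 18.6% of all genes tested, so that the shares among these 7 genes lay near the background. In RNA from whole cultures, fewer cells of a type and less RNA per cell cannot be told apart.

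**Figure D1:**
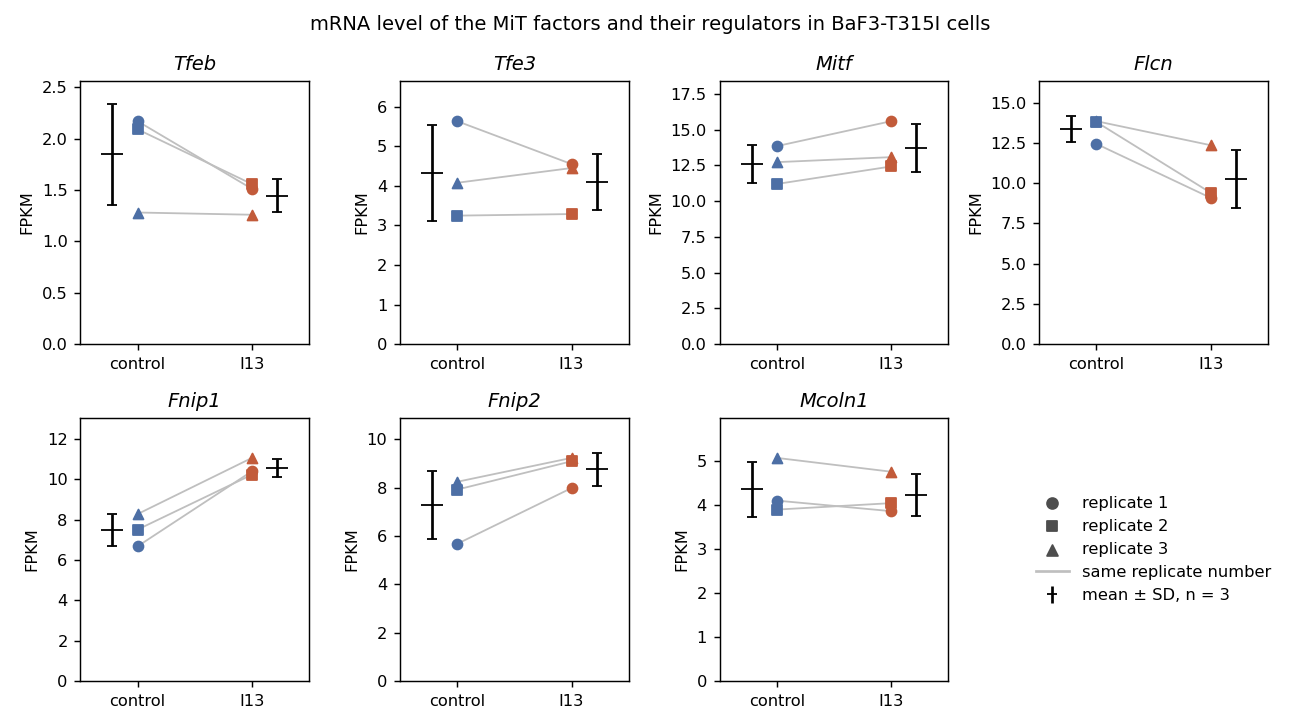
FPKM of each gene in the 3 control samples (blue) and the 3 I13 samples (orange), with grey lines joining samples of the same replicate number and black bars for the mean and SD of each group (n = 3). Fnip1 lies higher and Flcn lower in all I13 samples than in all controls, and the other 5 genes overlap between the groups.

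Per length of gene, Mitf had the highest mean of the 7 over the 6 samples, 13.1 FPKM, and Tfeb the lowest, 1.65 FPKM. Between them lay Flcn with 11.8 FPKM, Fnip1 with 9.03 FPKM, Fnip2 with 8.02 FPKM, Mcoln1 with 4.28 FPKM and Tfe3 with 4.20 FPKM. Neighbours in this order were separated beyond the spread of their 6 samples only between Fnip2 and Mcoln1 and between Tfe3 and Tfeb. The levels of Mcoln1 and Tfe3 overlapped in both groups. The order of the upper genes differed between the groups. In the controls the mean of Flcn, 13.4 FPKM, was above that of Mitf, 12.6 FPKM, with overlapping samples, and after I13 the means of Mitf and Fnip1, 13.7 and 10.6 FPKM, were above that of Flcn, 10.3 FPKM. Flcn lay above Fnip1 in all 3 controls without overlap, whereas after I13 Fnip1 lay above Fnip2 without overlap and the ranges of Flcn and Fnip1 overlapped. Among all genes tested, the mean of Mitf stood at the 65.8th percentile and that of Tfeb at the 17.7th percentile.

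In control replicates 1, 2 and 3 Mitf had 13.9, 11.2 and 12.7 FPKM. The I13 samples, in the same order, had 15.6, 12.4 and 13.1 FPKM. Each I13 sample lay above the control of the same number, but the groups overlapped, since control replicate 1 was higher than I13 replicates 2 and 3. On the log2 scale limma estimated a difference of 0.12 ± 0.13 for Mitf (SE, adjusted p = 0.649), with a 95% confidence interval from -0.18 to 0.42. This interval leaves out the study's fold change threshold in both directions.

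Tfe3 encodes a close relative of TFEB with overlapping targets. Its levels were 5.63, 3.25 and 4.07 FPKM in the controls, in the order of their replicate numbers. After I13 they were 4.55, 3.29 and 4.45 FPKM. The I13 values lay inside the range of the controls, and replicate 2 was the lowest sample of both groups. Tfe3 was estimated at -0.05 ± 0.22 on the log2 scale (SE, adjusted p = 0.919 by limma), with a 95% confidence interval from -0.58 to 0.47. Its sign depended on single samples, with 0.15 without control replicate 1 and 0.09 without I13 replicate 2.

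Tfeb had 2.17, 2.09 and 1.28 FPKM in the controls. In the I13 samples of the same numbers it had 1.51, 1.56 and 1.26 FPKM. The lowest sample of both groups was replicate 3, and control replicate 3 stood within the I13 values. On the log2 scale limma estimated a difference of -0.31 ± 0.24 for Tfeb (SE, adjusted p = 0.523), with a 95% confidence interval from -0.87 to 0.25. A decrease past the fold change threshold was therefore neither shown nor left out of the interval. Tfeb was lower in all 3 same-numbered pairs, by 0.49 and 0.40 on the log2 scale in pairs 1 and 2 and by 0.02 in pair 3. Without control replicate 3 the log2 fold change was -0.54, and without control replicate 1 it was -0.18. Tfeb rested on 125 to 218 fragments in a sample, for which counting alone gives a relative error of 7.83%, and the coefficient of variation between samples was 26.6% in the control and 11.1% after I13. Control replicates 1 and 3 differed by more than this counting error, with exact 95% Poisson intervals of 1.89 to 2.48 FPKM and 1.07 to 1.52 FPKM. These intervals cover counting error only.

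The 3 factors together summed to 18.8 ± 2.62 FPKM in the control and 19.2 ± 2.22 FPKM after I13 (SD, n = 3 each). Mitf made up 67.4 ± 3.22% of this sum in the control and 71.2 ± 1.37% after I13, and it was the largest part in each of the 6 samples. Tfe3 made up 22.7 ± 3.19% and 21.2 ± 2.33%, and Tfeb 9.92 ± 2.78% and 7.57 ± 1.26% (SD, n = 3 each). The shares of all 3 factors overlapped between the groups, with Mitf at 70.4% in control replicate 3 and 69.6% in I13 replicate 3. They are shares of mRNA per length and do not give the amount of protein.

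**Figure D2:**
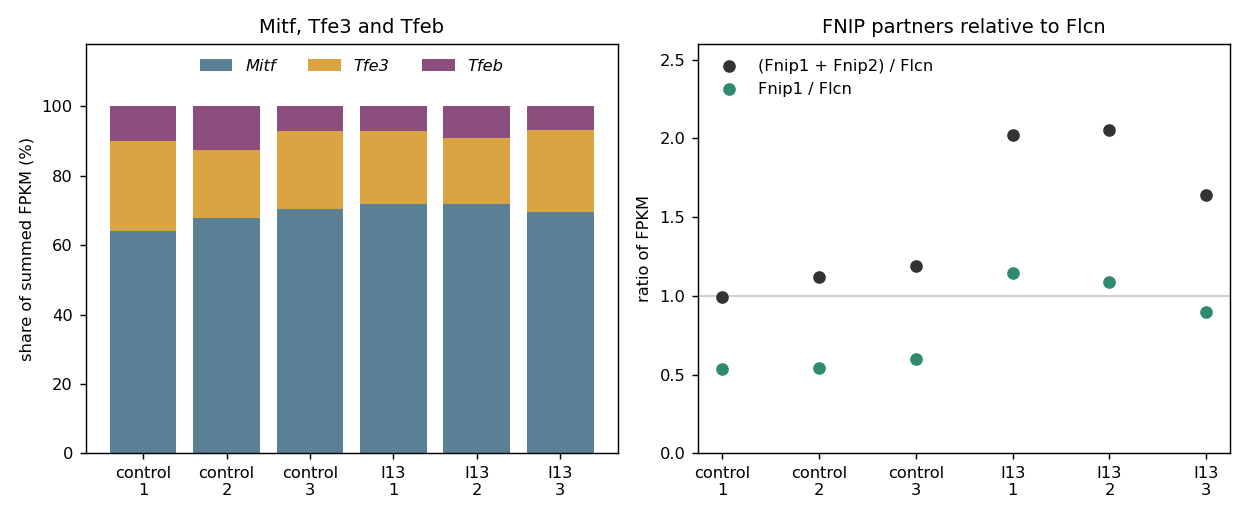
Left, the percentage of the summed FPKM of Mitf, Tfe3 and Tfeb taken by each gene in each sample. Right, the ratio of Fnip1 FPKM (green) and of Fnip1 plus Fnip2 FPKM (black) to Flcn FPKM in each sample, where the Fnip1 ratio is 0.537 to 0.598 in the controls and 0.896 to 1.15 after I13.

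Fnip1, a folliculin partner whose loss is known to block B cell development in mice, had 6.68, 7.51 and 8.28 FPKM in the controls. The I13 samples had 10.4, 10.2 and 11.1 FPKM. The groups did not overlap, and the highest control, replicate 3, lay below the lowest I13 sample, replicate 2. Fnip1 was estimated at 0.50 ± 0.11 on the log2 scale (SE, adjusted p = 0.113 by limma), with a 95% confidence interval from 0.24 to 0.75. With the replicate number as a block, the adjusted p of Fnip1 from limma was 0.0522. The difference was present in each of the 3 pairs, with log2 values of 0.63, 0.44 and 0.41 in pairs 1, 2 and 3. It ran from 0.42 to 0.57 when any one sample was left out. Fnip1 rested on 843 to 1380 fragments in a sample, so counting alone gives a relative error of 2.99%, against a coefficient of variation of 10.7% between the controls and 4.16% between the I13 samples.

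Fnip2, the second folliculin partner, had 5.67, 7.92 and 8.24 FPKM in the controls. The I13 samples had 7.99, 9.09 and 9.23 FPKM. Replicate 1 was the lowest sample of each group, and I13 replicate 1 lay below control replicate 3, so the groups overlapped. For Fnip2 the estimate by limma was 0.28 ± 0.16 on the log2 scale (SE, adjusted p = 0.382), with a 95% confidence interval from -0.09 to 0.66. With the replicate block the interval ran from 0.03 to 0.54 and the adjusted p from limma was 0.149. All 3 pairs were higher after I13, with log2 differences of 0.49, 0.20 and 0.16, and without control replicate 1 the log2 fold change was 0.11.

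Flcn had 12.4, 13.8 and 13.9 FPKM in the controls. The I13 samples had 9.09, 9.40 and 12.4 FPKM. The gap between the groups was small, since I13 replicate 3 lay at 12.36 FPKM just below control replicate 1 at 12.44 FPKM. With the FPKM rescaled to the same sum in every sample (TPM), Flcn was at 33.8 TPM in control replicate 1 and at 34.2 TPM in I13 replicate 3, so the groups overlapped on that scale. Flcn was estimated at -0.39 ± 0.14 on the log2 scale (SE, adjusted p = 0.205 by limma), with a 95% confidence interval from -0.71 to -0.07. With the replicate block the adjusted p from limma was 0.0893. Flcn was lower in every pair, by 0.45, 0.55 and 0.16 on the log2 scale in pairs 1, 2 and 3. Without I13 replicate 3 the log2 fold change was -0.53, and it stayed below 0 whichever sample was left out.

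A further analysis read the recovered fragments with limma's voom and the replicate block. In it the adjusted p was 0.0101 for Fnip1 and 0.0391 for Flcn, and 2 of the 7 genes were below 0.05 against 12.4% of all genes tested. The log2 fold changes in that fit were 0.50 and -0.39, so neither gene reached the fold change threshold and 0 of the 7 were called, where 4.14% of all genes were. With the replicate block on the FPKM values, 0 of the 7 were called, against 1.89% of all genes tested. None of the 7 reached an adjusted p below 0.05 in that limma fit, which 2.99% of all genes did. An unadjusted p below 0.05 was then seen for 3 of the 7, Fnip1, Flcn and Fnip2, and for 28.0% of all genes.

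**Figure D3:**
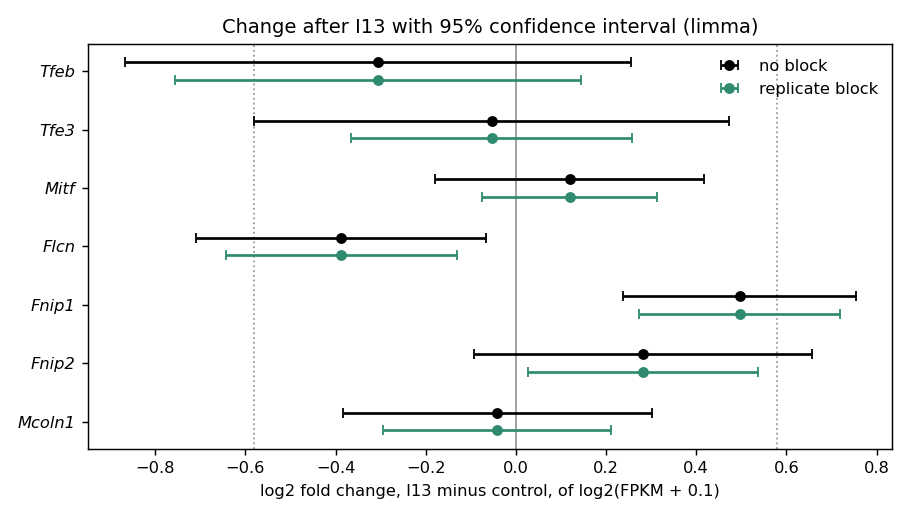
Log2 fold change of each gene on the log2(FPKM + 0.1) scale with its 95% confidence interval from limma, without (black) and with (green) the replicate block, dotted lines marking the fold change threshold of 0.58. The intervals of Fnip1 and Flcn leave out 0 in both fits, that of Fnip2 only with the block, and none of the 7 estimates reaches a dotted line.

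The ratio of Fnip1 to Flcn combines both differences. It was 0.537, 0.544 and 0.598 in control replicates 1, 2 and 3 and 1.15, 1.09 and 0.896 in the I13 replicates. The mRNA of Fnip1 and Fnip2 together was 1.10 ± 0.101 times that of Flcn in the control and 1.91 ± 0.230 times after I13 (SD, n = 3 each). Neither ratio overlapped between the groups, which for Fnip1 to Flcn follows from the separation of both genes already given. These ratios were chosen after the values of the genes were seen, so they are given without a test. A scaling of a whole sample cancels in them. Fnip1 was 51.0 ± 2.80% of the sum of Fnip1 and Fnip2 in the control and 54.7 ± 1.82% after I13 (SD, n = 3 each), with overlap between the groups.

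Mcoln1 had 4.09, 3.89 and 5.06 FPKM in the controls. The I13 samples had 3.85, 4.04 and 4.75 FPKM. Replicate 3 was the highest sample of each group, and the groups overlapped. For Mcoln1 the estimate by limma was -0.04 ± 0.15 on the log2 scale (SE, adjusted p = 0.904), with a 95% confidence interval from -0.38 to 0.30. The interval leaves out the fold change threshold in both directions. Its sign turned to 0.07 without control replicate 3 and to 0.02 without I13 replicate 1.

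Same-numbered samples moved together in several of these genes. Replicate 1 was the highest sample of each group for Mitf and Tfe3 and the lowest of each group for Fnip2 and Flcn. Replicate 2 was the lowest of each group for Mitf and Tfe3. Replicate 3 was the lowest of each group for Tfeb and the highest for Mcoln1, Fnip1, Fnip2 and Flcn. How many of all genes tested share such extremes was not counted. In 5 of the 7 genes the difference had the same direction in all 3 pairs, which held for 51.5% of all genes tested. Fnip1, Fnip2 and Mitf were higher in all 3 pairs, as were 24.1% of all genes, and Tfeb and Flcn were lower, as were 27.3%.

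The genes whose pattern over the 6 samples was most like that of Mitf were Clint1, Slc6a6 and AL513022.1. Their Pearson correlations with Mitf on the log2 scale were 0.993, 0.989 and 0.989. Those most like Flcn, which had the highest mean of the regulators over the 6 samples but not after I13, were Dera, Adipor1 and Psmb10, with correlations of 0.999, 0.992 and 0.990. Dera had 4.76, 5.17 and 5.19 FPKM in the controls and 3.74, 3.77 and 4.67 FPKM in the I13 samples, so that I13 replicate 3 again stood nearest to the controls. The correlations are over 6 samples, are the highest of 12163 genes and describe these libraries only.

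Of the 64 genes on 6 lists of proteins that act on the MiT factors, 60 were tested, and 26 of them were higher and 34 lower after I13. None was called without the block. In that fit 17 of the 60 had an unadjusted p below 0.05, a larger share than the 18.6% of all genes tested. With the replicate block 1 of the 60 was called, which is 1.67% beside 1.89% of all genes, so that the share called lay at the background. That gene was Fig4, the phosphoinositide phosphatase of the PIKfyve complex, whose lipid products gate the channel that Mcoln1 encodes. Fig4 had 1.03, 0.950 and 1.02 FPKM in the controls and 2.32, 2.84 and 2.04 FPKM in the I13 samples. The groups did not overlap. In limma Fig4 was higher by 1.17 ± 0.19 on the log2 scale (SE), and its adjusted p was 0.0472 under the block and 0.086 otherwise. Fig4 rested on 55 to 156 fragments in a sample.

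The other regulators named by the same rule had smaller log2 differences than Fig4. Of the 9 genes of mTORC1 and its Rheb switch, 3 were higher and 6 lower, and Rptor, which encodes the subunit that binds substrates, was at 6.40 ± 0.068 FPKM in the control and 4.84 ± 0.281 FPKM after I13 (SD, n = 3 each). Tsc2, an inhibitor of Rheb, was at 24.7 ± 1.42 and 19.6 ± 0.772 FPKM. Of the 9 Rag and Ragulator genes tested, 4 were higher and 5 lower, with Rraga at 33.5 ± 3.19 and 40.4 ± 2.61 FPKM and the Ragulator gene Lamtor4 at 47.8 ± 6.55 and 35.9 ± 7.11 FPKM. Of the 15 genes of the GATOR complexes and amino acid sensors tested, 5 were higher and 10 lower, with the GATOR2 gene Sec13 at 51.4 ± 3.49 and 40.9 ± 2.05 FPKM. The arginine sensor gene Castor1, listed under its older name Gatsl3, had 18.0, 10.5 and 10.7 FPKM in the controls and 19.6, 20.3 and 24.9 FPKM in the I13 samples, without overlap. The lowest adjusted p from limma on these 3 lists was 0.123, for Rptor. Of the 4 calcineurin genes, which follow Mcoln1 in the pathway, 2 were higher and 2 lower, and the subunit genes Ppp3cb and Ppp3cc had log2 fold changes of -0.19 and -0.17. Of the 17 genes tested for kinases, 14-3-3 proteins, nuclear export and turnover, 8 were higher and 9 lower, with the kinase gene Akt2 at 23.1 ± 1.88 and 18.0 ± 2.31 FPKM and the ubiquitin ligase gene Stub1 at 9.65 ± 0.258 and 7.89 ± 0.522 FPKM.

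Of 49 tested genes on 4 lists of CLEAR targets of the MiT factors, 40 were higher on average after I13 and 9 were lower. These lists were drawn up with earlier results of these data known. The median log2 fold change of these 49 genes was 0.18, beside -0.005 over all genes tested. Groups without overlap were seen in 2 hydrolase, 1 lysosomal membrane, 3 V-ATPase and 0 autophagy genes, beside 25.2% of all genes tested. None was called without the block, where 5 of the 49 had an unadjusted p below 0.05, beside 18.6% of all genes tested. With the replicate block 6 of the 49 were called, all of them higher. They were the protease genes Ctsb, Ctsd and Scpep1, the glycosidase genes Gla and Glb1, and Lamp1, which encodes an abundant lysosomal membrane protein. Of all genes tested, 1.36% were called higher and 0.526% lower in that fit. Over all lists of regulators and targets the blocked fit called 7 genes, and it called 8 without both samples of replicate 1 and 0 without those of replicate 2 or of replicate 3. Ctsb had 50.2, 37.1 and 92.4 FPKM in the controls, by replicate number, and 81.4, 81.3 and 172 FPKM in the I13 samples. Replicate 3 was therefore the highest sample of each group for Ctsb, where for Tfeb it was the lowest. The adjusted p of Ctsb from limma was 0.0325 with the block and 0.281 without it. Lamp1 was at 166, 157 and 222 FPKM in the controls and at 232, 283 and 343 FPKM after I13, without overlap (adjusted p = 0.0384 from limma with the block and 0.144 without it). Among the cell type markers Adgre1 of the macrophage list and Csf2rb and Csf2rb2 of the pro-B list were also called higher with the block. Adgre1 was at 18.1 to 40.1 FPKM in the controls and 44.1 to 76.7 FPKM after I13, and the part of such cells in the levels of the targets was not tested.

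The hydrolases had the highest median of the 4 lists. All 17 hydrolase genes tested were higher on average after I13, with a median log2 fold change of 0.41, and 2 had groups without overlap. With the block 5 were called. Of these, Ctsb, Ctsd, Gla and Glb1 overlapped between the groups, with adjusted p from limma of 0.281 to 0.410 without the block. Of the 19 listed, Sgsh and Ctsf fell under the filter on mean FPKM and were not tested. Sgsh went the other way, with 0.217, 0.231 and 0.514 FPKM in the controls and 0.0771, 0.108 and 0.0518 FPKM after I13. It rested on 4 to 40 fragments in a sample, and Ctsf did not exceed 0.0862 FPKM. Of the 7 lysosomal membrane genes, 4 were higher and 3 lower. Of the 13 V-ATPase genes tested, 10 were higher and 3 lower with a median of 0.10, and the proton pump subunit genes Atp6v1a and Atp6v0c had log2 fold changes of 0.43 and 0.49 (adjusted p = 0.109 and 0.127 from limma). Of the 12 autophagy genes 9 were higher and 3 lower, with a median of 0.06, and the lowest adjusted p from limma among them was 0.315, for Bcl2. Wipi1, which takes part in autophagosome formation, had a log2 fold change of 0.23. Of 13 other targets known mainly from melanocytes and osteoclasts, 7 were listed and 2 were tested, Hif1a with a log2 fold change of 0.42 and Cdk2 with -0.14. Mitf was at 11.2 to 15.6 FPKM, Hif1a at 10.1 to 15.8 FPKM and Cdk2 at 12.2 to 14.7 FPKM over the samples. The 5 listed targets that were not tested, Gpnmb, Trpm1, Ctsk, Oscar and Pmel, had means under the filter of 0.5 FPKM. Their low level therefore follows from the filter that set them apart. None of them exceeded 0.767 FPKM, the level of Pmel in control replicate 2.

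**Figure D4:**
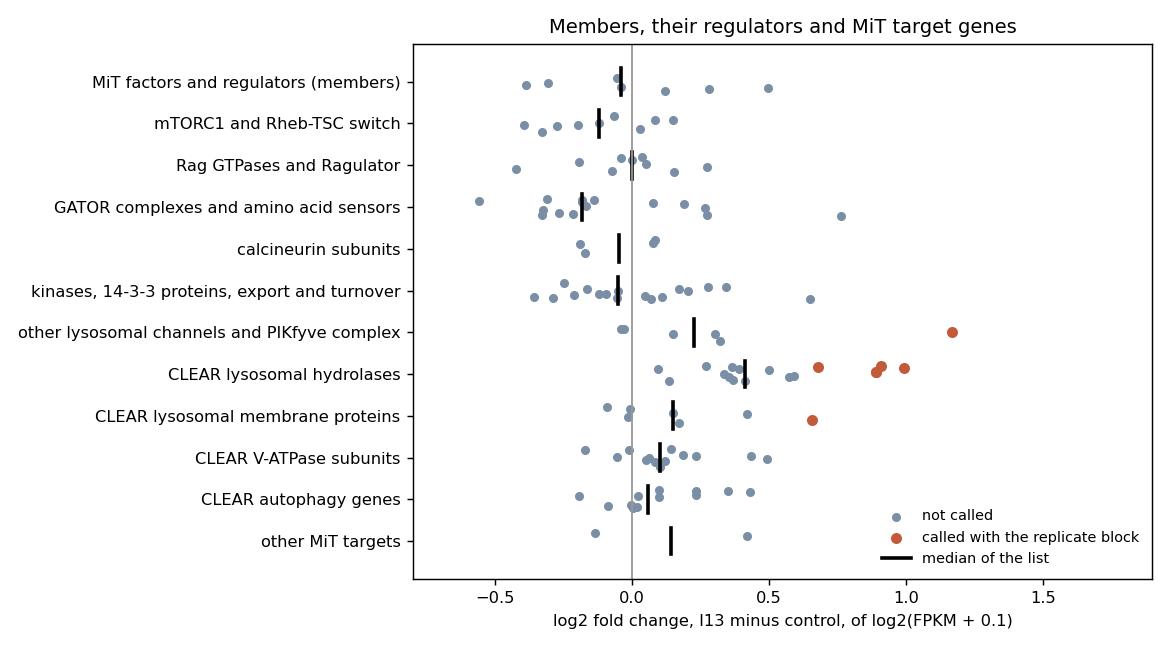
Log2 fold change of the 7 genes described here (top) and of every tested gene on the lists of regulators and targets, with the median of each list as a black bar and the genes called with the replicate block in orange. The 7 members lie between -0.39 and 0.50, and 5 of the 7 genes in orange are CLEAR lysosomal hydrolases.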

How the data were processed

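mRNA of 3 control and 3 I13-exposed samples was sequenced in stranded libraries, and groups and replicate numbers came from the labels. The authors deposited FPKM values of single samples. The submitters' processing notes name Trimmomatic, HISAT2, Cufflinks and HTSeq with the build hg38, and the labels a human organism, whereas the gene identifiers are of mouse. The values were used as mouse genes, and no sequences or coordinates are given. The planned search of promoters for E-box motifs was not run. How counting treated strand and overlapping genes is not given in the sources used here. 0 columns were left without a sample.

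Fragment numbers and gene lengths were recovered from the FPKM values for 100% of the 22413 genes, within 0.001 fragments plus a relative 1e-07. limma 3.58.1 (R 4.3.3) was fitted to log2(FPKM + 0.1) by eBayes with a trend, in the 12163 genes of mean FPKM of at least 0.5, with Benjamini-Hochberg adjustment over all of them. Fold changes of low genes are understated by the pseudocount. The fit was tested on simulated data. Deviations from the group means correlated by 0.15, 0.30 and 0.22 between same-numbered samples and by -0.26 to 0.05 between others. By this check same-numbered samples were more alike than others, but the sources used here do not state that they were paired.

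Named genes are the 7 members, on each list the genes called with or without the block or else the 2 of lowest p, and the 3 genes most correlated with Mitf and with Flcn. The marker genes, Sgsh, Ctsf, Gpnmb, Trpm1, Ctsk, Oscar and Pmel were named after their values were seen. Members and lists were chosen with earlier results of these data known. Alternatives were other pseudocounts, filters, scalings and eBayes settings, the replicate block, voom, and leaving out each sample. Leaving out a same-numbered pair in the blocked fit was chosen after seeing the data. matplotlib 3.10.9 drew the figures.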

Additional observations from a re-analysis of the deposited data

How the results depend on the processing

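For the 7 genes described here, 0 were called in every fit, with or without the replicate block. Their log2 fold changes kept their direction under the 12 alternatives that used all samples, with 0.45 to 0.53 for Fnip1 (adjusted p from limma 0.0101 to 0.162) and -0.40 to -0.36 for Flcn (0.0391 to 0.312). Only voom with the block brought both below an adjusted p of 0.05. With one sample left out, the direction turned for Tfe3 (0.15 without control replicate 1, 0.09 without I13 replicate 2) and Mcoln1 (0.071 without control replicate 3, 0.02 without I13 replicate 1), and in the blocked fit leaving out both samples of replicate 1 Tfe3 was at 0.070. Over those fits Fnip1 ran from 0.42 to 0.57, Flcn from -0.53 to -0.31, Tfeb from -0.54 to -0.18, Fnip2 from 0.11 to 0.38, Mitf from 0.02 to 0.19, Tfe3 from -0.24 to 0.15 and Mcoln1 from -0.13 to 0.071. The differences in the shares among the factors moved by less than the SD of the controls, but with a control left out those of Mitf (3.84 percentage points, 2.14 to 5.35) and Tfeb (-2.35, -3.76 to -0.986) moved by more than the SD of the I13 samples, and that of Tfe3 turned from -1.49 to 0.152 without control replicate 1.

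The counts over all genes, 4 higher and 1 lower, became 166 and 64 under the replicate block, and 375 and 128 when voom was added to it. Of the genes on the lists of regulators and targets, 0 were called without the block, 7 under it and 9 once voom was added. The block changed no call among the 7 genes described here. A pseudocount of 0.01, median-ratio scaling and quantile normalization each gave 2 higher and 0 lower genes, and no filter or eBayes without a trend gave 3 lower genes. Leaving out 1 sample gave 0 higher and 0 lower genes, although 1478 to 2482 had an unadjusted p below 0.05. With the block and without both samples of replicate 1 there were 78 higher and 5 lower genes and 8 list genes, and without those of replicate 2 or 3 there were 0, although 1638 and 3160 genes had an unadjusted p below 0.05. These fits had fewer samples. What caused the changes in these counts was not tested. The scalings moved the median log2 fold change of all genes to between -0.02 and 0.02. Depth limits Tfeb most, with at most 218 fragments in a sample.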
